A study of Mus musculus with 20 samples.

Results

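Stbd1 and 8 other genes of glycogen metabolism (Gys1, Pygm, Gbe1, Phka1, Phkg1, Ppp1r3a, Ppp1r3c and Gaa) were followed in the extensor digitorum longus (EDL), a fast-contracting hindlimb muscle, of male C57Bl6 mice. They were taken by gene name from the annotation of the arrays, which holds 15 probes for the 9 genes, out of 15719 genes that could be tested. Stbd1 was picked because it differed between the vector-treated and the empty-vector legs of these same animals, so the differences between legs are given for every one of the 9 genes as a description, without p-values, and counts of genes called between legs support nothing. The comparisons of Scriptaid with vehicle and the interaction of both treatments were not the ones used for that choice, and they were tested. They use the same arrays, and the interaction is the difference between the leg differences of both kinds of animal. For Stbd1 they are therefore not independent of the choice.

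At 8 weeks of age each mouse was injected in both hindlimbs, toward the EDL and the soleus, with recombinant adeno-associated virus of serotype 6 (rAAV6). On the left this was an empty vector, and on the right a pair of vectors for D832N HDAC4 and D861N HDAC5 (here dnHDAC4/5), with 2.5e+10 vector genomes of each in 30 µL. Both proteins are mutant, dominant-negative forms of class IIa histone deacetylases. After 4 weeks the whole animal received an intraperitoneal injection of Scriptaid, a hydroxamate inhibitor of histone deacetylases, or of vehicle (5% DMSO in PBS). Neither the dose of Scriptaid nor the time from this injection to the collection of the muscle is stated in the sources used here, and the vector reaches whatever cells of the muscle it transduces.

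The 4 groups of 5 arrays are named EV and HV for the empty-vector and dnHDAC4/5 legs of the vehicle animals, and ES and HS for the same legs of the Scriptaid animals. All animals had both legs injected with rAAV6, so no untouched muscle enters any group. EV and HV arrays of one number come from the 2 legs of 1 animal, as do ES and HS arrays, which makes 10 animals. The sample titles of the ES arrays name the vehicle, whereas their treatment entries and animal identifiers name Scriptaid, and the latter were followed. All values below are log2 processed intensities relative to the 75th percentile of the array, so a value of 0 lies at that percentile and a difference of 1 is a doubling.

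Glycogen is the glucose store of the muscle fibre. Glycogen synthase (Gys1) adds glucose to the outer chains, and the branching enzyme (Gbe1) makes the branch points. Glycogen phosphorylase (Pygm) releases glucose units from the particle in the cytosol, and acid alpha-glucosidase (Gaa) does so in the lysosome. Phosphorylase kinase, to which Phka1 and Phkg1 contribute the muscle alpha and gamma subunits, switches phosphorylase on. Protein phosphatase 1, which switches the synthase on and phosphorylase off, is brought to glycogen by targeting subunits such as Ppp1r3a and Ppp1r3c. Stbd1 (starch-binding domain-containing protein 1) is a membrane protein that binds glycogen and, through an ATG8-binding motif, GABARAP-family proteins of autophagy. Class IIa histone deacetylases repress muscle genes through MEF2 transcription factors.

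Stbd1 was read by 3 probes of 60 bases, and their sequences show how far these are separate readings. Below are the first 30 bases of the brightest probe, A_52_P645855, which the files pair with the RefSeq transcript, the last 30 bases of A_52_P290090 and the first 30 bases of A_52_P290088, as the array files give them. Capitals mark the 20 bases that the latter 2 stretches have in common.
A_52_P645855: gaccagtaaggatcggagtgaaactctaga
A_52_P290090: TTTGCAACTTGCCACTTCATtctctctcat
A_52_P290088: tgtgggagacTTTGCAACTTGCCACTTCAT
The probes A_52_P290090 and A_52_P290088 share 40 of their 60 bases in all and are in effect 1 reading. Neither shares an end with A_52_P645855, which is a separate stretch.

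The promoters of the 9 genes, 250 bases before to 50 after the start in RefSeq on GRCm38.p6, were all found and were searched on both strands for 3 motifs. The first was CTA and TAG with any 4 bases between them. This is looser than the site of MEF2 factors, which holds A or T at the 4 inner bases. The others were CANNTG (the E-box, bound by myogenic factors among others) and CACGTG (the form of the E-box read by TFEB, a regulator of lysosomal genes, and so also counted as CANNTG). The 250 bases before the start of Stbd1, the gene called between legs, and of Ppp1r3c, whose left-leg values did not overlap between injections, are shown, with matches of CANNTG in capitals. The other stretches surround the matches of the loose MEF2 pattern in Ppp1r3a and Phka1 and of CACGTG in Gaa, again in capitals.
Stbd1, chr5:92602801-92603050, plus strand: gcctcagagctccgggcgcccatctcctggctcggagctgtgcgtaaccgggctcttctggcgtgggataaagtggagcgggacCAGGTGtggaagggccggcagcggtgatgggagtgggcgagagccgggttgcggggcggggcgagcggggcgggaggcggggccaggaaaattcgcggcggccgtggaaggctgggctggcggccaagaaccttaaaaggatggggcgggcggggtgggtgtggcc
Ppp1r3c, chr19:36736605-36736854, minus strand: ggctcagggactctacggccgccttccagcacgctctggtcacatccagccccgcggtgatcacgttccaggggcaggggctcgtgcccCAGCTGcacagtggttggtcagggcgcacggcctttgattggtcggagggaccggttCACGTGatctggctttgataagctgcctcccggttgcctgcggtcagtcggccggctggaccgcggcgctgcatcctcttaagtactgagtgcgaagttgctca
Ppp1r3a, chr6:14755340-14755399, minus strand: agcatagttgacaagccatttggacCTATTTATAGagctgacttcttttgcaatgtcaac
Phka1, chrX:102644428-102644487, minus strand: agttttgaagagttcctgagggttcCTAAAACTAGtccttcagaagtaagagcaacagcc
Gaa, chr11:119267798-119267853, plus strand: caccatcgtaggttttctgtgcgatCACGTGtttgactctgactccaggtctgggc

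The loose MEF2 pattern was present in 2 of the 9 promoters, Ppp1r3a and Phka1, and in 3.69% of all 32851 promoters of the same length. The Phka1 match holds a C among its inner bases, and the stricter site was not counted over all promoters. Stbd1 held no such letters in this window. CACGTG was present in 2 of the 9, Ppp1r3c and Gaa, and in 7.15% of all promoters. CANNTG was present in 9 of 9 and in 72.3% of all promoters, and the Stbd1 window held it once, at position -166 from the start. These matches describe letters and not binding.

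Over the 20 arrays, the 75th percentile of intensity ranged from 248.4 to 608.1, and 51.7% to 61.3% of spots were well above background. The HS arrays read low near the border of the array: 5.63% to 11.8% of spots in the 3 outer columns and 10 outer rows lay more than log2 3 below the median of all arrays, against 0% to 2.23% on the others. The scanner software also marked more of their spots as uneven or as outliers (657 to 1342 spots per HS array and 375 to 685 per array elsewhere). Away from the border, EV 5 had the most low spots (1.73%), and the HS arrays had 0.14% to 0.508%. The mutant vectors could not be checked from the native transcripts, whose probes may lie outside the vector sequence. Hdac4 differed between legs by 0.28 ± 0.24 (SE) in vehicle animals and 0.30 ± 0.23 in Scriptaid animals, and Hdac5 by -0.01 ± 0.15 and -0.01 ± 0.17, and neither passed limma's test.

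All 15 probes were well above background and below saturation on all 20 arrays. Of the 9 genes, 7 had enough unmarked spots to be fitted. Pygm and Gaa had fewer than 3 unmarked arrays in at least 1 group, and they are given from all spots. Of the fast-fibre markers (such as Myh4 and Pvalb), 9 of 9 were well above background on at least 10 arrays, and their summed linear level overlapped between all groups. The same held for 7 of 7 slow-fibre markers, so this does not tell the EDL from another muscle. No slow-fibre marker passed the test in any comparison. The sum of 7 such markers was 161 to 247 (75th percentile = 1) in EV, 139 to 188 in HV, 107 to 169 in ES and 108 to 213 in HS. All 7 were lower in HV than in EV (median -1.28) and higher in HS than in ES (median 0.49). Of the other cell types, 8 of 9 macrophage markers were higher in right legs over both injections (median 0.32, 0 called). Of 6 adipocyte markers, 5 were lower in right legs of vehicle animals (median -0.47) and 6 higher in those of Scriptaid animals (median 1.95), with 0 called in either. Over both injections 6 of 6 Schwann cell markers (median -0.40) and 5 of 5 endothelial markers (median -0.21) were lower, with 1 called in each, Sox10 (-1.14 ± 0.25) and Cdh5 (-1.97 ± 0.17). Both are read by probes near the border and were named after their values were seen. Cdh5 was also called, lower, for Scriptaid in right legs and on the animal mean and for the interaction. The summed levels of these 5 lists overlapped between all groups, no listed marker was below background on every array, and their part in the results below was not tested. In whole muscle, fewer cells that express a gene and less of its RNA per cell cannot be told apart.

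Stbd1, the glycogen tether, was higher in the right leg than in the left leg of all 10 animals. The fit of the brightest probe gave about 2.35-fold in vehicle animals and 2.71-fold in Scriptaid animals, the latter from 5 ES and 3 HS arrays. On the brightest probe the EV legs read 2.09, 2.24, 3.27, 3.01 and 3.03, in the order of the animals 1 to 5. The HV legs of the same animals read 4.17, 4.11, 3.62, 4.68 and 3.23. HV 5 lay below EV 3, so the vehicle groups overlapped by this one pair of values. The ES legs read 2.41, 2.72, 3.06, 2.73 and 2.94. The HS legs read 4.25, 3.96, 4.43, 4.77 and 5.38, of which the last 2 came from marked spots that were not used in the fit. Every HS value lay above every ES value.

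Within an animal the right leg exceeded the left by 2.08, 1.87, 0.34, 1.66 and 0.20 in vehicle animals 1 to 5. The differences of animals 3 and 5 were the smallest, and their left legs were among the highest of the EV group. In Scriptaid animals the differences were 1.84, 1.23, 1.38, 2.04 and 2.43, the last 2 again with a marked spot. The fitted difference was 1.23 ± 0.27 (SE; 5 arrays in each group) in vehicle animals and 1.44 ± 0.31 (5 ES and 3 HS arrays) in Scriptaid animals, with a mean of 1.34 ± 0.20 over both. Without EV 5, the array with the most low spots, the vehicle difference was 1.31. With marked spots kept, the difference in Scriptaid animals was 1.79 ± 0.29. Other settings made it smaller. Over 32 other settings of the processing it ranged from 0.585 to 1.79 in Scriptaid animals. The range was 1.05 to 1.45 in vehicle animals and 0.886 to 1.51 over both.

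The smaller spread of the ES legs (SD 0.25, n = 5) beside the EV legs (SD 0.53, n = 5) was also present on the other probes. A_52_P290090 and A_52_P290088, with no marked spot, were higher in the right leg in 10 of 10 animals, by 1.24 ± 0.29 and 1.09 ± 0.31 in vehicle animals and 0.96 ± 0.29 and 1.04 ± 0.31 in Scriptaid animals. Over the 20 arrays they followed the brightest probe with Pearson r of 0.91 each, and each other with r of 0.97. These are correlations of readings of the same RNA samples. The 3 probes thus gave the same order of legs in every animal, while the size of the Scriptaid-animal difference was larger on the probe with 2 marked spots.

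**Figure D1:**
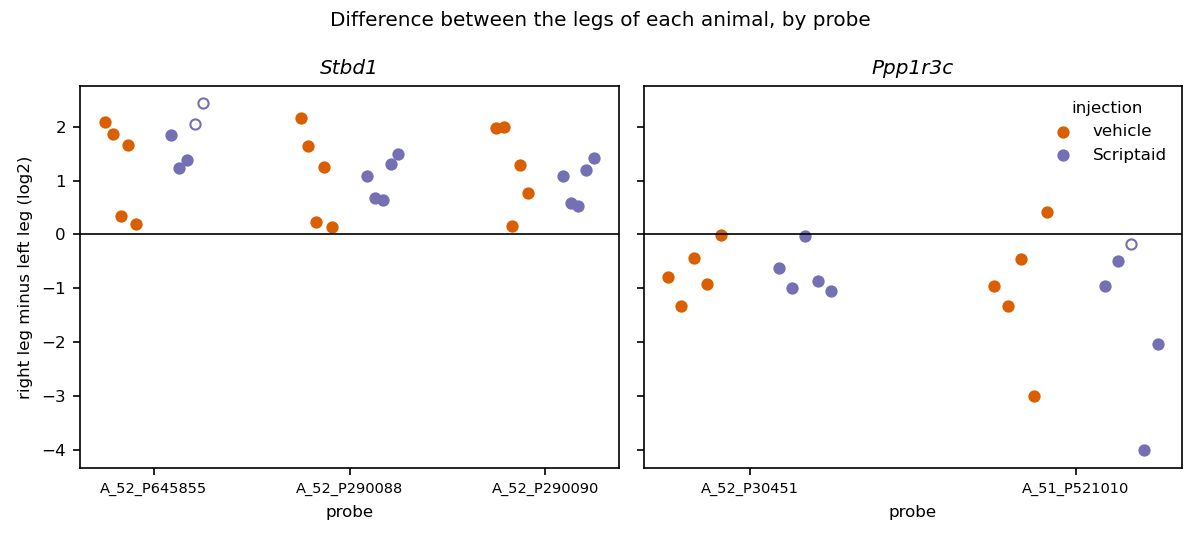
Right leg minus left leg of each animal (log2) for the 3 Stbd1 probes and the 2 Ppp1r3c probes, with vehicle animals in orange and Scriptaid animals in purple, and open points where a spot of either leg was marked. All 30 Stbd1 points lie above 0, from 0.15 to 2.43, and the 10 points of the brighter Ppp1r3c probe lie below 0, from -1.33 to -0.01.

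Among the genes of synthesis, Gbe1 was slightly higher in right legs and Gys1 could not be settled. Gbe1, the branching enzyme, read 4.49, 4.33, 5.32, 4.59 and 4.96 in EV legs and 5.55, 4.89, 5.42, 5.15 and 4.81 in HV legs. It read 4.79, 4.33, 5.56, 4.87 and 4.58 in ES legs, the last from a marked spot, and 5.38, 4.69, 5.56, 5.36 and 5.52 in HS legs. The groups overlapped in both kinds of animal, although the right leg was higher in 8 of 10 animals. The fitted difference was 0.43 ± 0.24 in vehicle and 0.41 ± 0.25 in Scriptaid animals.

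Gys1, the muscle glycogen synthase, has 1 probe. EV legs read 3.94, 3.45, 4.26, 3.80 and a marked 1.63, and HV legs read 4.02, a marked 3.03, 3.95, 3.68 and 4.17. ES legs read 4.11, 3.63, 4.32, 4.00 and 4.22, whereas HS legs read 4.39, 3.06, 4.48, -1.60 and -1.11. The last 2 values lay at -5.55 and -5.05 from the median of the 20 arrays, on unmarked spots away from the border. The difference was 0.09 ± 1.05 in vehicle animals and -2.21 ± 0.94 in Scriptaid animals, and -0.08 in Scriptaid animals without HS 4 and HS 5. The large negative value therefore came from these 2 arrays.

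Among the genes of breakdown, Pygm was lower in the right leg of all 10 animals. Pygm, the muscle phosphorylase, read 6.80 (marked), 6.89, 7.09, 7.19 and 7.11 in EV legs and 6.36, 6.23, 6.33, 7.02 and 6.96 in HV legs, where only the second spot was unmarked. ES legs read 7.18, 7.21, 6.79, 7.02 and 7.09, with the second and the fourth marked. HS legs read 6.84, 6.41, 5.98, 6.93 and 6.50, with the second and the fourth unmarked. Right legs were lower by 0.09 to 0.81 within animals, and the groups overlapped in both kinds of animal. With marked spots kept, the difference was -0.44 ± 0.19 in vehicle animals, -0.53 ± 0.19 in Scriptaid animals and -0.48 ± 0.13 over both. Of the 10 pairs of legs only 1 had no marked spot, and 7 of the 10 marked spots lay in right legs, so these values rest on spots the scanner software called irregular.

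Phkg1, the catalytic subunit of phosphorylase kinase, was lower in the right leg in 9 of 10 animals, by small amounts. EV legs lay between 2.97 and 4.11, HV legs between 2.83 and 3.93, ES legs between 3.16 and 3.99 and HS legs between 2.97 and 3.74. The legs differed by -0.28 ± 0.23 in vehicle and -0.24 ± 0.23 in Scriptaid animals, in the fit without pairing. Within animals, right minus left ranged from -0.44 to -0.14 in vehicle and from -0.62 to 0.15 in Scriptaid animals. The SD between animals of a group was 0.31 to 0.41, which does not measure the spread of these paired differences.

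Phka1, the regulatory alpha subunit of the same kinase, had 3 probes that did not agree. The brightest, A_52_P278311, lies in the outermost columns and gave 0.80 ± 0.52 in vehicle and 0.35 ± 0.64 in Scriptaid animals. A_52_P706912 and A_52_P196825, which lie inside the array, gave -0.29 ± 0.20 and -0.35 ± 0.40 in vehicle animals and -0.13 ± 0.20 and -0.34 ± 0.40 in Scriptaid animals. The 2 inner probes followed each other over the 20 arrays (r = 0.75), but not the border probe (r = 0.08 and 0.12). No direction of the difference between legs can be given for Phka1.

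Gaa, the lysosomal glucosidase, read 4.47, 4.55, 4.76, 4.71 and 4.68 in EV legs and 4.68, 4.46, 4.50, 5.02 and 4.77 in HV legs. ES legs read 3.17, 4.63, 3.66, 4.72 and 4.65, with the third marked, and HS legs read 4.55, 4.27, 4.33, 4.68 and 4.57, with the last 3 marked. The right leg was higher in 5 of 10 animals and lower in 5. With marked spots kept the difference was 0.05 ± 0.24 in vehicle and 0.31 ± 0.24 in Scriptaid animals.

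**Figure D2:**
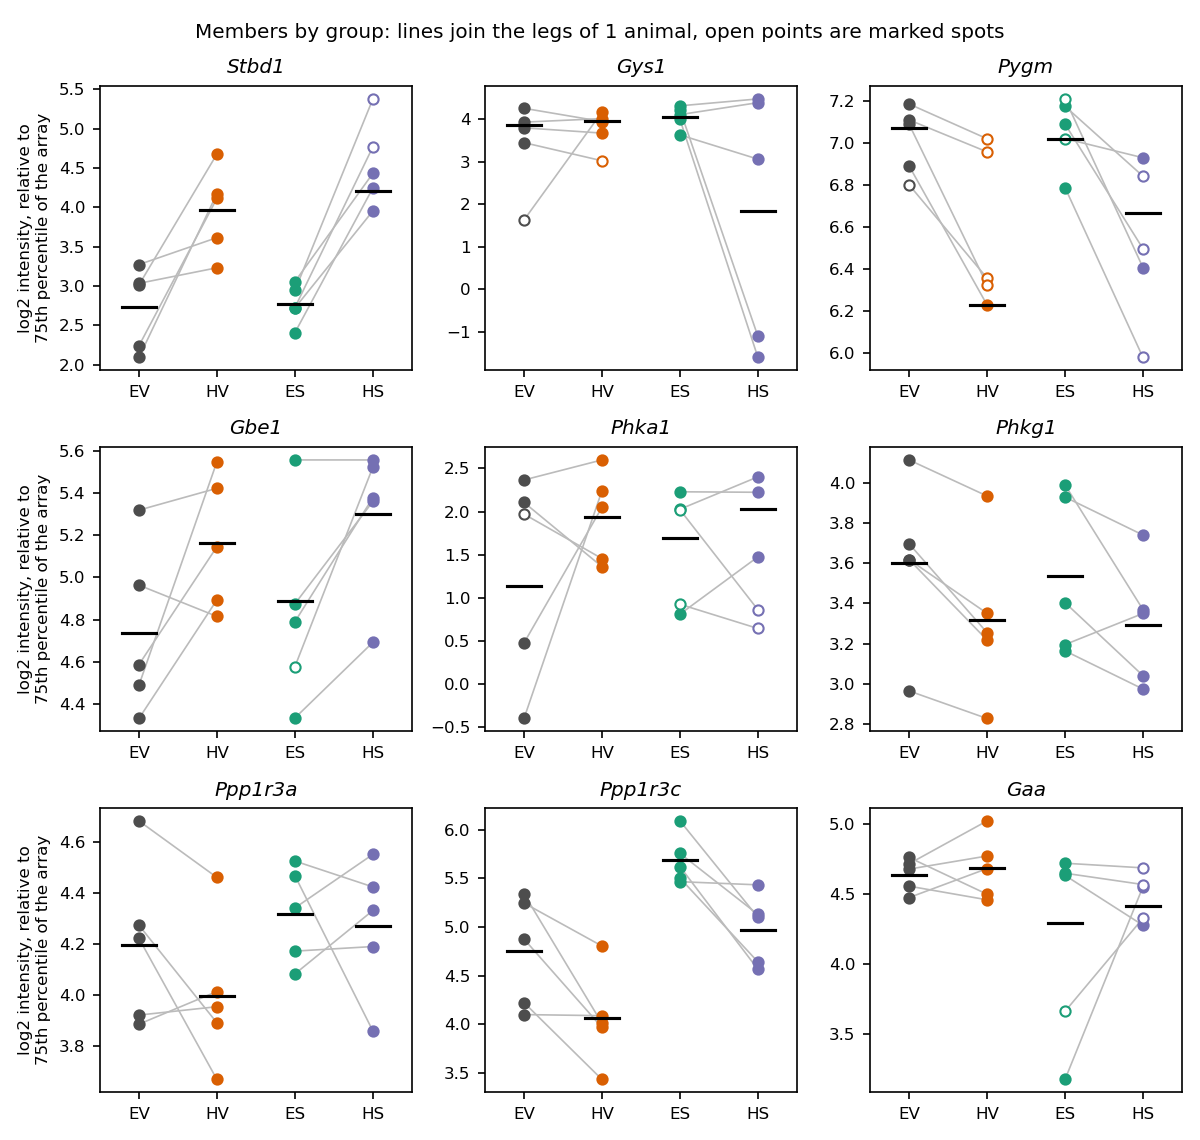
Log2 intensity relative to the 75th percentile of the array for each of the 9 genes in the 4 groups (EV and HV vehicle animals, ES and HS Scriptaid animals), on the probe that stood for the gene, with lines joining both legs of an animal, open points for marked spots and bars for the mean of unmarked spots. The Stbd1 lines all run upward, those of Pygm and Ppp1r3c all run downward, and 2 Gys1 points of the HS group (-1.60 and -1.11) stand apart.

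The phosphatase targeting subunit Ppp1r3c was lower in the right leg of all 10 animals. On its brighter probe, A_52_P30451, EV legs read 4.22, 5.34, 5.25, 4.88 and 4.10 and HV legs read 3.43, 4.01, 4.81, 3.97 and 4.09. ES legs read 5.76, 6.09, 5.47, 5.50 and 5.62 and HS legs read 5.13, 5.10, 5.43, 4.64 and 4.57. Every HS value lay below every ES value, and EV and HV overlapped. Within animals the right leg was lower by 0.01 to 1.33. The difference was -0.70 ± 0.27 in vehicle and -0.71 ± 0.27 in Scriptaid animals (a fold of 0.617 and 0.61), with a mean of -0.71 ± 0.19.

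The other Ppp1r3c probe, A_51_P521010, lies near the border of the array and was lower in the right leg in 9 of 10 animals. It included the low readings HV 4 at -1.86 and HS 4 at -2.59, and it gave -1.06 ± 0.69 and -1.85 ± 0.73. The brighter probe lies in column 5 from the border. In that column and both next to it, 0% to 0.845% of spots were low on HS arrays and 0% to 2.36% on the others.

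Ppp1r3a, the muscle glycogen-targeting subunit, differed little between legs. EV legs lay between 3.88 and 4.68, HV legs between 3.67 and 4.46, ES legs between 4.08 and 4.52 and HS legs between 3.86 and 4.55, and the right leg was higher in 5 animals and lower in 5. The difference was -0.20 ± 0.17 in vehicle and -0.05 ± 0.17 in Scriptaid animals. A dimmer probe, A_52_P634083, was lower in the right leg in 9 of 10 animals (-0.30 ± 0.23 and -0.29 ± 0.23), and over the arrays it followed the first one weakly (r = 0.31).

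In the limma fit of all genes, 1 of the 7 fitted genes, Stbd1, was called in Scriptaid animals at an adjusted p under 0.05, where 1.24% of 15719 genes were called, and the same 1 of 7 over both kinds of animal, where 1.09% were. In vehicle animals 0 of 7 were called and 0% of all genes, with 2 of the 7 and 729 of 15719 genes at an unadjusted p under 0.05. Without border spots 0 of 7 were called in Scriptaid animals, where 0.342% of all genes were. Since Stbd1 was picked from these comparisons, and the set with it, nothing is read from any count of the 7 genes in this paragraph. This holds for counts at an unadjusted p and with a block as well. Groups that did not overlap were found for Stbd1 (higher) and Ppp1r3c (lower) between HS and ES, as for 2.09% and 1.36% of all genes in those directions. With the 2 legs of an animal kept together as a block, Ppp1r3c joined Stbd1 in the mean over both injections, 2 of 7, where 4.89% of all genes were called.

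Scriptaid given to the whole animal went with a higher Ppp1r3c level in both legs, about 1.9-fold, and this missed the threshold after adjustment over all genes. In left legs, all 5 ES values lay above all 5 EV values, a separation in that direction that 0.719% of all genes showed. The difference was 0.93 ± 0.27 (95% confidence interval 0.37 to 1.49; limma adjusted p = 0.999). In right legs the HS values overlapped the HV values only through HV 3, and the difference was 0.91 ± 0.27 (0.36 to 1.47; limma adjusted p = 0.124). On the mean of both legs, which counts each animal once, the difference was 0.92 ± 0.22 (0.44 to 1.40; limma adjusted p = 0.272).

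The right-leg value passed without HV 3 (limma adjusted p = 0.0474) and with the slide as a block (limma adjusted p = 0.0467). The animal mean passed with another background correction (limma adjusted p = 0.027). These were 2 of 31 other settings in right legs (limma adjusted p up to 0.548) and 1 of 19 on the animal mean (up to 0.637). The left-leg value passed in 0 of 31. In left legs the difference without EV 5 was 0.77. Slow-fibre markers were lower in ES than in EV for 7 of 7 genes, by a median of -1.13, with none passing the test, and in right legs 5 of 7 were higher, by a median of 0.47. Their part in the Ppp1r3c difference was not tested. The dimmer Ppp1r3c probe gave 0.97 ± 0.69 in left and 0.18 ± 0.73 in right legs.

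None of the other fitted genes passed in a Scriptaid comparison: 0 of 7 were called in left legs, in right legs and on the animal mean, where limma called 0%, 1.29% and 0.199% of all genes. At an unadjusted p under 0.05 the count was 1 of 7 in each, Ppp1r3c, beside 3.84%, 10.6% and 6.95% of all genes. For Stbd1 the difference was 0.04 ± 0.27 in left legs (-0.52 to 0.60) and 0.25 ± 0.31 in right legs (-0.40 to 0.90; limma adjusted p = 0.856). On the animal mean it was 0.12 ± 0.20 (-0.33 to 0.58; limma adjusted p = 0.94). The right-leg fit rests on 3 HS arrays. With marked spots kept, the right-leg difference was 0.59 ± 0.29 (-0.02 to 1.21, limma adjusted p = 0.49). The dimmer probes A_52_P290090 and A_52_P290088 gave -0.04 ± 0.29 and 0.06 ± 0.31 in right legs. The intervals leave room for a Scriptaid difference of up to 0.60 in left legs. In right legs they leave room for up to 0.90, or 1.21 with marked spots kept.

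Gbe1 differed by 0.15 ± 0.25 in left and 0.14 ± 0.24 in right legs, Phkg1 by -0.07 ± 0.23 and -0.02 ± 0.23, and Ppp1r3a by 0.12 ± 0.17 and 0.27 ± 0.17. Phka1 differed by 0.55 ± 0.60 in left and 0.09 ± 0.57 in right legs on its border probe. Its inner probe A_52_P706912, with no marked spot, gave 0.46 ± 0.20 and 0.62 ± 0.20, and A_52_P196825 gave 0.26 ± 0.40 and 0.27 ± 0.40. Without border spots A_52_P706912 stood for the gene and was not called in right legs (limma adjusted p = 0.223). Gys1 differed by 0.19 ± 1.00 in left legs, and by -2.11 ± 1.00 in right legs with HS 4 and HS 5 and 0.03 without them. With marked spots kept, Pygm differed by 0.04 ± 0.19 and -0.05 ± 0.19, and Gaa by -0.47 ± 0.24 and -0.20 ± 0.24. The Gaa difference of left legs came with 2 low ES readings, 3.17 and 3.66, the latter marked.

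**Figure D3:**
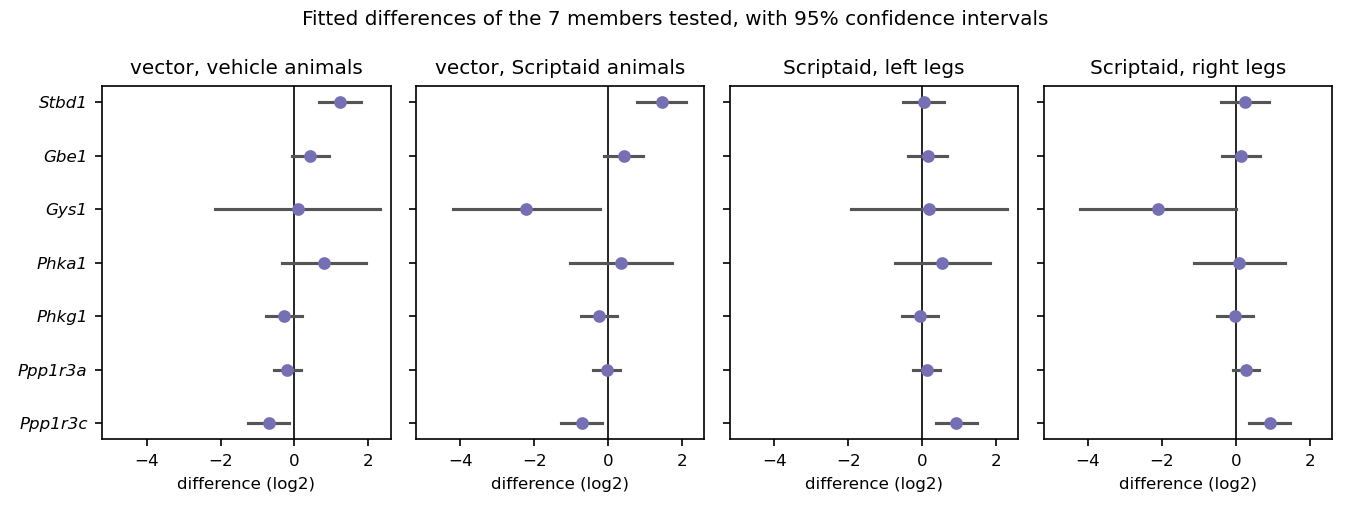
Fitted differences (points, log2) with 95% confidence intervals (lines) for the 7 genes with enough unmarked spots, as right minus left leg in vehicle and in Scriptaid animals and as Scriptaid minus vehicle in left and in right legs. Stbd1, fitted without its marked spots, lies at 1.23 and 1.44 between legs and at 0.04 and 0.25 between injections, while Ppp1r3c lies at -0.70 and -0.71 between legs and at 0.93 and 0.91 between injections.

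The interaction asks whether the difference between legs depended on the injection. It was 0.21 ± 0.41 for Stbd1 (-0.65 to 1.07), -0.02 ± 0.38 for Ppp1r3c (-0.81 to 0.77) and -0.01 ± 0.35 for Gbe1 (-0.75 to 0.72), and limma called 0 of 7, against 0.178% of all genes. No member had an unadjusted p under 0.05, beside 4.07% of all genes. For Ppp1r3c the group means came to 4.76 ± 0.57 (SD, n = 5) in EV, 4.06 ± 0.49 in HV, 5.69 ± 0.25 in ES and 4.97 ± 0.36 in HS. The level with both treatments thus lay between that with either one and differed from the EV level by less than the spread within EV. For Stbd1 the order was EV (2.73 ± 0.53) and ES (2.77 ± 0.25), which did not differ beyond their spread, then HV (3.96 ± 0.56, n = 5) and HS (4.21 ± 0.24, n = 3), which also did not.

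Other genes of glycogen handling were read from a list of 26, of which 25 were on the array and 20 could be tested. limma called none of them in the 7 comparisons (19 were tested on the animal mean). The phosphoglucomutase gene named Pgm1 in the files (RefSeq symbol Pgm2) gave -0.62 ± 0.20 over both injections (limma adjusted p = 0.154), from a probe at the border. Pgm5, of the same family, gave 0.64 ± 0.17 for Scriptaid in right legs (limma adjusted p = 0.0938) and 0.73 ± 0.25 for the interaction, where Pgm1 gave -0.76 ± 0.40. Ppp1r3d, another targeting subunit, and Pygb, the brain phosphorylase, had the smallest p for Scriptaid in left legs (-0.62 ± 0.31 and -0.31 ± 0.20). The Ppp1r3d probe lies near the border. Gys2, the liver synthase, and Pgm2l1 had the smallest p on the animal mean (-0.82 ± 0.35 and 0.27 ± 0.13). The median was 0.02 for the vector over both injections (20 genes) and -0.06 for Scriptaid on the animal mean (19 genes), beside 0.02 and 0.03 for all genes.

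Of 11 genes of glucose entry and AMP-activated protein kinase (AMPK), all tested, limma called 0 in each of the 7 comparisons. For the vector over both injections the smallest p belonged to Prkag2, the gamma-2 subunit of AMPK (0.62 ± 0.22, limma adjusted p = 0.211), and Prkaa2, the alpha-2 catalytic subunit (-0.26 ± 0.11, limma adjusted p = 0.321). In vehicle animals they were Hk1, a hexokinase (-0.35 ± 0.21), and Prkaa2 (-0.25 ± 0.15). In Scriptaid animals they were Prkag2 (0.77 ± 0.31) and, from a probe near the border, Prkag3, the gamma-3 subunit of fast muscle (-0.44 ± 0.21). For Scriptaid in left legs they were Prkab1 (-0.31 ± 0.15) and Hk2, the insulin-responsive hexokinase, whose 1.12 ± 0.63 came with a low EV 5 reading of 0.71 beside 5.07 to 5.61 in the other EV legs. On the animal mean they were Prkab1 (-0.21 ± 0.12) and Prkag1 (0.16 ± 0.09). For Scriptaid in right legs and for the interaction they were Prkag1 (0.26 ± 0.09 and 0.20 ± 0.13) and Prkag3 (-0.44 ± 0.21 and -0.40 ± 0.30). Each Prkag3 value given here uses the HS arrays, which read low near the border.

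Of 20 partners of Stbd1 in autophagy and the lysosome, 18 could be tested, and limma called 1 higher for the vector in Scriptaid animals and 1 higher over both injections, with 0.534% and 0.522% of all genes called higher. Gabarap, an ATG8-family protein of the autophagosome, rose in Scriptaid animals by 0.60 ± 0.14 (limma adjusted p = 0.0392). ES legs read 3.64, 3.81, 3.94, 3.83 and 4.12, and the 3 unmarked HS legs read 4.49, 4.30 and 4.62. All 3 lay above the ES values, a separation in that direction that 2.09% of all genes showed. It was not called without border spots (limma adjusted p = 0.0776), in the wider border zone, with median scaling, with normexp background, with no background filter, in the authors' matrix or without HS 4 and HS 5, and the limma adjusted p ranged from 0.00298 to 0.999 over 29 settings. It was also not called without any one of EV 1, EV 4, HV 2, ES 1, ES 2, ES 3, ES 4 or HS 5, and over the 17 omissions that left a test the limma adjusted p ranged from 0.0304 to 0.0974. Without HS 1, HS 2 or HS 4, its unmarked HS arrays, it had no test. The difference in vehicle animals was 0.08 ± 0.12, and the interaction of 0.52 ± 0.18 did not pass (limma adjusted p = 0.787).

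Hexa, a subunit of lysosomal beta-hexosaminidase, rose over both injections by 0.35 ± 0.08 (limma adjusted p = 0.0326), and the right leg was higher in 10 of 10 animals. EV legs read 3.12, 3.03, 3.23, 3.01 and 2.77, and HV legs read 3.57, 3.26, 3.35, 3.35 and 3.30, with no overlap. In vehicle animals 0.324% of all genes were separated in that direction. ES legs read 2.96, 2.93, 3.12, 2.98 and 3.18, and HS legs read 3.14, 3.50, 3.39, 3.37 and 3.62. It passed without border spots (limma adjusted p = 0.0465), but not with quantile normalization, median scaling, normexp background or no background filter, in the authors' matrix or without HS 4 and HS 5 (up to 0.14 over all settings). It also did not pass without any one of EV 2, EV 4, HV 1, HV 4, ES 1, ES 2, ES 4 or HS 5 (0.0205 to 0.0721 over the 20 omissions).

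In vehicle animals the smallest p belonged to Map1lc3a, another ATG8-family protein (0.58 ± 0.18, limma adjusted p = 0.81), and Hexa (0.33 ± 0.11). Ctsd, the lysosomal protease cathepsin D, named here after its values were seen, gave 0.42 ± 0.11 over both injections (limma adjusted p = 0.0669). For Scriptaid, the genes of smallest p were Ctsl (-0.19 ± 0.10) and Ctsb (0.10 ± 0.10), 2 cathepsins, in left legs, Gabarap (0.55 ± 0.14, limma adjusted p = 0.0612) and Lamp2, a lysosomal membrane protein (0.27 ± 0.10), in right legs, and Glb1, the lysosomal beta-galactosidase (-0.42 ± 0.19), and Tfeb (-1.23 ± 0.56) on the animal mean. The Tfeb probe lies near the border, and its value came with HS 2 at -6.12 and HS 3 at -5.64, beside -0.96 to -0.41 in the other HS legs. With the animal as a block, limma called 7 of the 49 genes of the 3 lists over both injections, beside 4.89% of all genes. Among these 7, Gabarap, Gabarapl1, Map1lc3a, Ctsd and Hexa were higher, and the gene named Pgm1 was lower. In Scriptaid animals the block gave 5 of 49, where 4.43% of all genes were called.

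**Figure D4:**
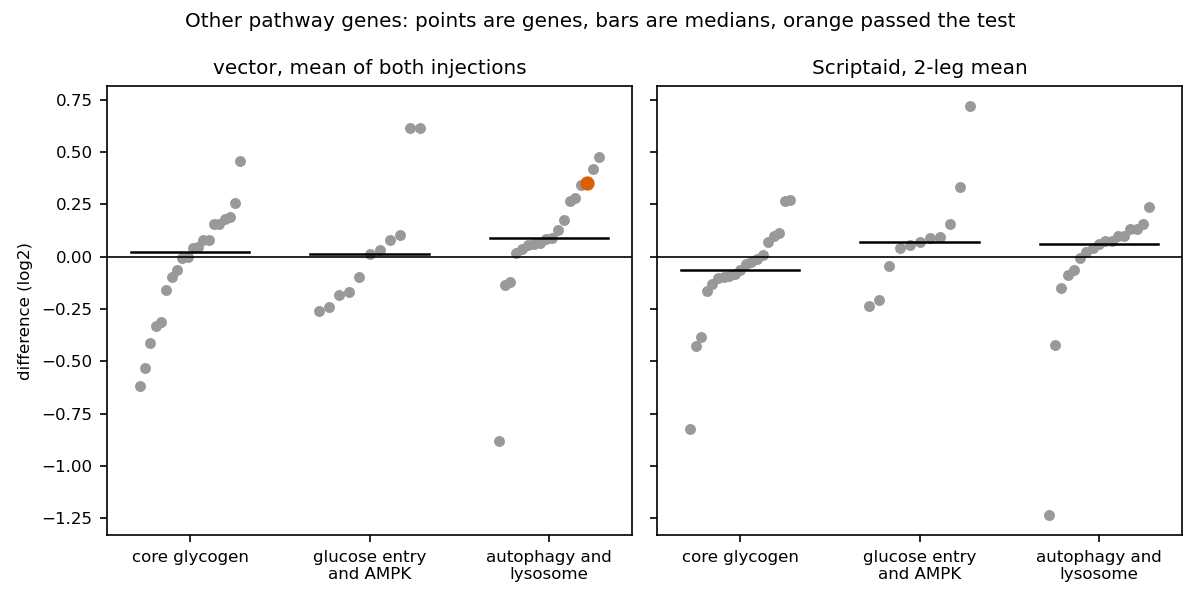
Fitted differences (log2) of the other pathway genes in 3 lists (points, sorted within each list), for the vector averaged over both injections and for Scriptaid on the 2-leg mean, with the list median as a bar and called genes in orange. Hexa (0.35) is the one called gene shown, and the medians lie between -0.06 and 0.09.

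Likeness to Stbd1 was measured over the arrays on which both genes had an unmarked spot (at least 15 of 20). The 5 genes with the highest Pearson r, of 15595, were Ube2g2 (0.956), Chrna9 (0.933), Gsdma (0.933), Ankrd11 (0.927) and Rpl10 (0.924). These values share the 4 groups, the animals and the choice of Stbd1 for its difference between legs. Among the other genes of the set Gbe1 was nearest (r = 0.64, rank 371) and Ppp1r3c farthest (r = -0.39, rank 14441). Gys1 (0.11), Ppp1r3a (-0.15) and Phkg1 (-0.18) lay between, and Phka1 had too few unmarked arrays.

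After the group means were subtracted, which leaves the differences among animals of a group, the genes of highest r included Cst6 (0.907), Ube2g2 (0.899), Rpl36a (0.895) and Vmp1 (0.885). Gbe1 followed Stbd1 with r = 0.55 (rank 1092), Phkg1 with 0.34 and Ppp1r3a with 0.29. Gys1 (0.11) and Ppp1r3c (-0.13) lay lower. These points share slides and RNA samples, and the correlations are descriptions of 16 to 18 arrays.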

How the data were processed

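Per the labels' protocols, 100 ng of total RNA from each muscle was labelled with Cy3 and hybridised to 1 one-colour array. Per the file headers, Agilent-014868 arrays were extracted with Feature Extraction 9.5.1.1, and the deposited intensity had its spatial trend and its multiplicative trend over the array removed. The authors' deposited series matrix holds a ratio, which equals that intensity divided by 1 constant per array to within 0.549% (checked on values of at least 3). From the intensity, log2 values minus each array's 75th percentile were computed. Marked spots (12539 over all arrays) were dropped. A probe was kept when well above background on at least 5 arrays and present on at least 3 in each group (23596 probes), and the brightest probe stood for its gene. The 4 group means of 15719 genes were compared two-sided by limma (version 3.58.1, R 4.3.3, files read with version 1.17.8 of data.table), with Benjamini-Hochberg adjustment over all genes. Every adjusted p is from that tool. Figures were drawn with matplotlib 3.10.9 in Python 3.11.15. The number of arrays limits the precision.

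The members, the lists and the tests were chosen with earlier results of these data known. The naming rule took all 9 genes in every comparison, every called gene of 3 pathway lists or else the 2 of smallest p, and the 5 genes most like Stbd1. Some genes that the rule takes are not reported here. Animal identifiers pair the legs: deviations from the group means correlated with r of 0.03 to 0.41 between EV and HV legs and 0.20 to 0.34 between ES and HS legs of an animal. Between EV and ES arrays of one slide, which come from different animals, r was 0.15 to 0.27. Both legs of an animal lay on the same slide, so the correlations of legs do not separate the animal from the slide. The fit reported has no block for the animal, and an alternative has one (consensus correlation 0.335). Each of the 5 slides held 1 array of every group, always in that group's own place, and an effect of the place cannot be told apart from one of the group. The fit was tested on simulated data.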

Additional observations from a re-analysis of the deposited data

Results flagged for a closer look

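In 53 groups of 4 or 5 unmarked readings of these probes, 2 readings stood apart from the rest of their group, and chance sets apart about 1 in 20 such groups. Gaa in ES 1 read 3.17, with the nearest ES value at 4.63, a gap of 0.944 of the range of the 4 readings. Gbe1 in HS 2 read 4.69, with the nearest HS value at 5.36, a gap of 0.773 of the range of the 5 readings.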

How the results depend on the processing

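The number of the 7 genes called was recomputed under up to 32 other settings, of which 3 were chosen after seeing the data (marked spots kept, a wider border zone, HS 4 and HS 5 both left out). It stayed at 0 under every setting in vehicle animals, in left legs for Scriptaid and for the interaction. In Scriptaid animals (1, Stbd1) it was 0 with median scaling, with normexp background, with the mean of probes, without border spots and with the wider zone, and 0 to 1 leaving out single arrays, with 0 when HS 1, 2 or 3 or ES 1, 2 or 4 was left out. Over both injections (1) it was 0 with the mean of probes, 2 (Stbd1 and Ppp1r3c) with the replicate block for the animal and with the slide as a block, and 1 to 2 leaving out single arrays (2 without EV 5 or HV 3). For Scriptaid it was 1 (Ppp1r3c) in right legs with the slide as a block, 0 to 1 leaving out single arrays (1 without HV 3), and 1 on the animal mean with normexp background. The replicate block changed no other call of these 7 genes. Without HS 1, 2 or 3, fewer than 3 unmarked HS values remain on the brightest Stbd1 probe, and a dimmer probe stands in. In the mean of probes, HS 4 and 5 rest on the dimmer probes alone. Signs that turned belong to differences that passed no test. With normexp background, Phkg1 gave 0.36 (left legs), 0.10 (right legs), 0.23 (animal mean) and -0.26 (interaction), Ppp1r3a -0.19 (interaction), and Stbd1 -0.12 (right legs) and -0.45 (interaction). With the mean of probes, Stbd1 gave -0.48 (right legs), -0.17 (animal mean) and -0.60 (interaction) and Ppp1r3c 0.11 (interaction). With marked spots kept, Gbe1 gave 0.049 (interaction) and Phka1 -0.42 (right legs) and -0.060 (animal mean). Without HS 4 and 5, right legs gave 0.026 for Gys1 and -0.091 for Phka1, and the interaction -0.020 for Phkg1 and 0.23 for Ppp1r3c. Without border spots, in either zone, the Phka1 interaction was 0.16. Phkg1 gave 0.0070 in right legs with median scaling, and 0.0028 in left legs and -0.069 for the interaction in the authors' matrix. The cause of these turns was not tested. Leaving out single arrays, the interaction ranged from -0.20 to 0.21 for Gbe1, -0.87 to 0.28 for Phka1, -0.084 to 0.20 for Phkg1, -0.17 to 0.17 for Ppp1r3c and -0.28 to 0.39 for Stbd1. Scriptaid in left legs ranged from -0.072 to 0.34 for Gbe1, -0.22 to 0.062 for Phkg1 and -0.12 to 0.23 for Stbd1. In right legs it ranged from -0.052 to 0.71 for Phka1, -0.14 to 0.13 for Phkg1 and -0.055 to 0.43 for Stbd1. On the animal mean it ranged from -0.047 to 0.30 for Gbe1 and -0.18 to 0.097 for Phkg1. No scaling moved the median of all genes by more than 0.0911. The animal mean, 1 value per animal, has no block fit.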
